A study of Mus musculus with 8 samples.

Results

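Integrins are cell-surface receptors made of 1 α and 1 β chain, and the leukocyte integrins are those that white blood cells use to hold on to endothelium, matrix and other cells. The 10 integrin genes described here were chosen with earlier results of these data known. They were taken by name out of the 49315 genes in the count table, by a rule that itself used no measured value. They are the α chains Itga4, Itga5, Itga6, Itgal, Itgam and Itgax and the β chains Itgb1, Itgb2, Itgb5 and Itgb7. An α chain reaches the cell surface only when paired with a β chain, so each receptor depends on both genes. Itgb2 pairs with Itgal (LFA-1), Itgam (Mac-1, also called CR3) and Itgax (CR4), Itgb1 pairs with Itga4 (VLA-4), Itga5 (the fibronectin receptor) and Itga6 (a laminin receptor), Itgb7 pairs with Itga4 and Itgae, and Itgb5 pairs with Itgav. Circulating cells keep their integrins in a bent, inactive form until talin and kindlin bind the β tail from inside the cell, and macrophages use the active receptors to adhere, to migrate and to take up opsonised and apoptotic cells.

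The RNA-Seq libraries were made from bone marrow-derived macrophages (BMDMs), cells grown from the femur and tibia marrow of C57BL/6 mice in macrophage colony-stimulating factor. All 8 cultures were transfected with a gapmeR, at 25 nM per the labels. A gapmeR is an antisense DNA oligonucleotide flanked by locked nucleic acids, and RNase H cuts the RNA it pairs with. In 4 libraries (replicates 9, 11, 13 and 15) the gapmeR was directed against the long noncoding RNA MAARS, and in the other 4 (replicates 2, 5, 6 and 7) it was a negative control. The comparison asked which genes change in BMDMs when MAARS is knocked down. No untransfected library was part of it, and the sources used here do not say whether the replicates came from separate mice, so p-values measure the spread between these libraries, which may be technical.

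Gene counts totalled 19287279 to 20567123 per control library and 20839671 to 24541205 per MAARS gapmeR library, so every MAARS gapmeR library was the deeper. MAARS itself, annotated as the lincRNA Gm14461 (ENSMUSG00000054510; GRCm38 chromosome 2, 78237547 to 78302230, plus strand), stood at 13.1 ± 1.36 CPM (gene counts scaled to a common library size and corrected for library composition; mean ± SD, n = 4) in control libraries and at 6.82 ± 0.844 CPM in MAARS gapmeR libraries (n = 4), and its counts were lower in all 4 MAARS gapmeR libraries than in any control library. All 10 macrophage markers examined, Adgre1, Csf1r, Cd68 and Lyz2 among them, passed the filter on low counts. By edgeR at an adjusted p under 0.05, 5 were higher and 4 lower with MAARS gapmeR, against 21.3% and 24.0% of all genes tested. Their log2 fold changes ran from -2.09 (Fcgr1) to 0.79 (Mrc1). Their summed level was 15205 to 18426 CPM in the control and 18534 to 21937 CPM in the MAARS gapmeR libraries. That separation did not hold without Lyz2, as the other 9 summed to 6732 to 7744 CPM in the control and 6720.5 to 7259 CPM in the MAARS gapmeR libraries, which overlap. No other marker was left out in this way. In bulk RNA, fewer cells of a type and less RNA per cell cannot be told apart.

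The stretch of DNA just upstream of a gene holds the sites for the factors that set its transcription, and in macrophages PU.1, encoded by Spi1, is a factor known to act on integrin promoters. RefSeq promoters on GRCm38.p6 were found for 7 of the 10 integrin genes, all but Itgal, Itgb2 and Itga6. Shown here are 4 of them, the 250 bases before the start of Itgb7 and Itga5, whose counts were lower after MAARS knockdown, and of the neighbours Itgam and Itgax, whose counts were higher. Sequences run 5′ to 3′ on the gene's strand, and capitals mark GAGGAA, the PU.1 core, on either strand (TTCCTC where it lies on the opposite strand).
Itgb7 (chr15:102231936-102232185, minus strand): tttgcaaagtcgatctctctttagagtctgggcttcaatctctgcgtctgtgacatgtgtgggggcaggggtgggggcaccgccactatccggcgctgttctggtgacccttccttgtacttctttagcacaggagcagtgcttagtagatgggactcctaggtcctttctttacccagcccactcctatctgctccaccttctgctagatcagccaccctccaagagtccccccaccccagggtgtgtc
Itga5 (chr15:103366792-103367041, minus strand): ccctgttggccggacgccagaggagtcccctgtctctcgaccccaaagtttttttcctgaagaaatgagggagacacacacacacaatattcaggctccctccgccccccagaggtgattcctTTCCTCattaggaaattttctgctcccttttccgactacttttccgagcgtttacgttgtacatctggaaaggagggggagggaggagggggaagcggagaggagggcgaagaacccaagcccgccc
Itgam (chr7:128062390-128062639, plus strand): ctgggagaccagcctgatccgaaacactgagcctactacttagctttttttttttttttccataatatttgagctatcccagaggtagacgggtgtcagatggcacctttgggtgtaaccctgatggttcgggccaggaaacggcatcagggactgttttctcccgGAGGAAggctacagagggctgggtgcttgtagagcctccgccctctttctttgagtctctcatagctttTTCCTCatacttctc
Itgax (chr7:128129300-128129549, plus strand): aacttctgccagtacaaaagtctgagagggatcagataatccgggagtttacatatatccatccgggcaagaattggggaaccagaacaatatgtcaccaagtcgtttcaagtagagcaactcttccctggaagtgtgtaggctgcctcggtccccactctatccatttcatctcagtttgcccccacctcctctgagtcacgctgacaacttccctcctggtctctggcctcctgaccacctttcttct

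GAGGAA on either strand was present in 3 of the 7 promoters, against 7639 of all 32851 RefSeq promoters of this length (23.3%). Itgam held 2 matches, beginning 84 and 15 bases before the start, Itga5 held 1 at 127 bases and Itgb1 held 1 at 9 bases. The letters GAAA followed after 2 bases by GAAA, the core of an interferon-stimulated response element, were found in 0 of the 7 and in 2.98% of all promoters. The promoter of Itgb7 held neither set of letters. Spi1 fell from 344 ± 29.1 to 263 ± 6.89 CPM (SD over 4 libraries). Its log2 fold change was -0.39 (SE 0.0596, adjusted p = 0.000335) in edgeR's quasi-likelihood test, and its part in the integrin values was not tested.

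All 10 integrin genes passed the filter on low counts, and 7 differed between the groups at an adjusted p under 0.05 (edgeR's quasi-likelihood test, Benjamini-Hochberg adjustment over the 13051 genes tested). Across all genes tested, 45.4% differed. Among the integrin genes, 4 were higher with MAARS gapmeR (Itgb5, Itgax, Itgam and Itga6), where 21.3% of all genes were higher, and 3 were lower (Itgb7, Itga5 and Itgal), where 24.0% of all genes were lower. The groups did not overlap for 7 of the 10, against 42.1% of all genes. The median log2 fold change of the 10 was 0.12, against 0.01 for all genes tested. Itgb7 showed the greatest difference in size, and the other 9 log2 fold changes lay between -0.41 and 0.35. With upper-quartile scaling, which raised the median log2 fold change of all genes by 0.06, 6 integrin genes were higher and 2 lower. Of all genes, 3622 were higher and 2379 lower with that scaling, against 2782 and 3137 without it.

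**Figure D1:**
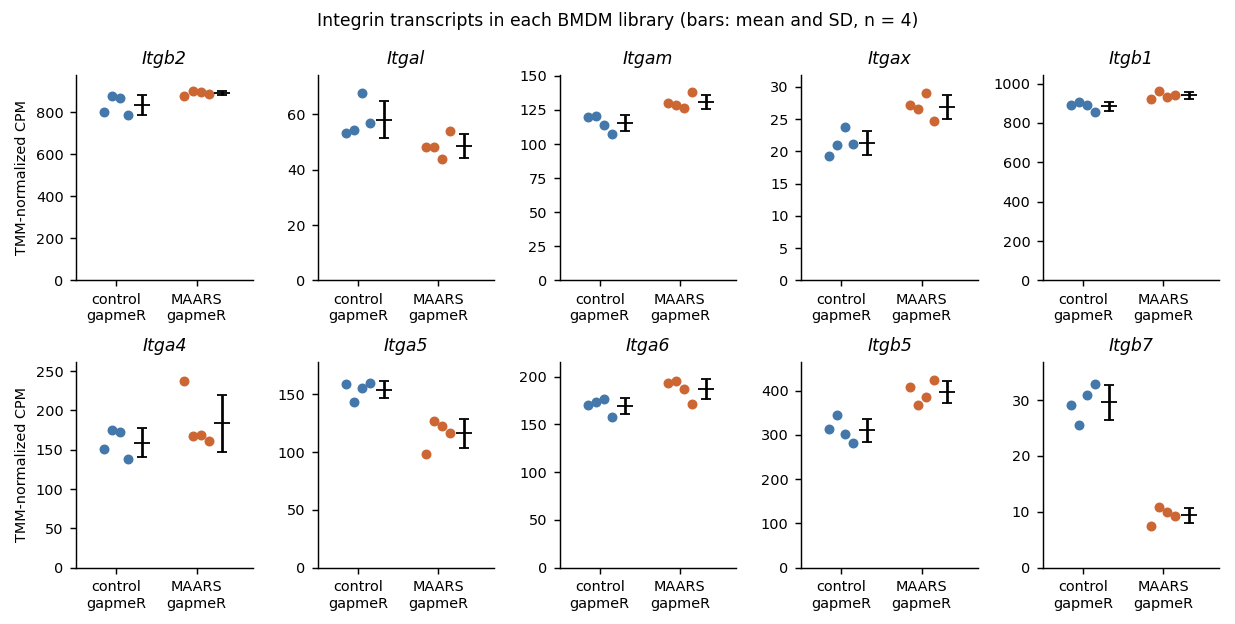
Level of each of the 10 integrin genes in every library, in TMM-normalised CPM on the vertical axis, with 4 control gapmeR and 4 MAARS gapmeR libraries per gene, each point a library and the bars beside them the mean and SD. The groups lie fully apart for Itga5, Itgam, Itgax, Itgb1, Itgb2, Itgb5 and Itgb7 and overlap for Itga4, Itga6 and Itgal.

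Itgb7, the β chain of the gut-homing receptor α4β7 that binds the mucosal addressin Madcam1 and of αEβ7, fell by 68.3% after MAARS knockdown. The gene (ENSMUSG00000001281; GRCm38 chromosome 15, 102215995 to 102231944, minus strand) stood at 29.1, 25.5, 30.8 and 32.9 CPM in control replicates 2, 5, 6 and 7 and at 7.52, 10.8, 9.88 and 9.19 CPM in MAARS gapmeR replicates 9, 11, 13 and 15. The gap between the highest MAARS gapmeR library and the lowest control library was wider than the spread within either group. The mean fell from 29.6 ± 3.13 to 9.34 ± 1.38 CPM (SD, n = 4 each). This gave a log2 fold change of -1.66 (SE 0.112, adjusted p = 4.91e-06) by edgeR, and over the 15 alternative fits the log2 fold change lay between -1.74 and -1.57. Its α partners differed in level, as Itga4 was well detected whereas Itgae, which marks intraepithelial lymphocytes and some dendritic cells, had 0 to 8 counts per library and was not tested. Madcam1 had no count in any library.

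Itgb7 is also known from lymphocytes and mast cells, so their markers were read beside it. Cd3d, Cd3e and Cd3g stayed at or below 0.0946 CPM in every library. The 9 T and NK cell markers summed to 66.2 to 85.7 CPM in the control and 41.1 to 51.7 CPM in the MAARS gapmeR libraries, nearly all of it Cd4. Cd4, the only member of that list that could be tested, fell from 74 ± 8.59 to 46.2 ± 4.72 CPM (SD over 4 libraries), with a log2 fold change of -0.68 (SE 0.0902, adjusted p = 0.000126) by edgeR. The 6 mast cell and basophil markers summed to 1.13 to 2.00 CPM in the control and 0.757 to 1.24 CPM in the MAARS gapmeR libraries. Mcpt4 and Fcer1a were at 0 throughout, and the other 4 were detected at low counts. Of these only Kit could be tested, and it did not pass, with a log2 fold change of -0.70 (SE 0.503, adjusted p = 0.281) by edgeR. The 6 B cell markers summed to 1.89 to 5.11 CPM in the control and 2.65 to 4.12 CPM in the MAARS gapmeR libraries. Only Cd79b and Ebf1 could be tested, and neither passed edgeR's test, with log2 fold changes of 0.03 and 0.48. In CPM, Ms4a1, below the filter with 0 to 4 counts per library, was lower in all MAARS gapmeR libraries than in any control library, and the rest overlapped. The part of such cells in the value of Itgb7 was not tested.

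Itga4, the α chain that joins Itgb7 or Itgb1 and binds Vcam1 and fibronectin, did not pass the test. It lies on the same chromosome as MAARS, 953 kb beyond its end (ENSMUSG00000027009; GRCm38 chromosome 2, 79255426 to 79333123, plus strand). Its level was 150.3, 175, 173 and 138 CPM in the control libraries and 237, 167, 169 and 161 CPM in the MAARS gapmeR libraries. Replicate 9 stood above every other library, and the remaining MAARS gapmeR libraries lay within the control range. The log2 fold change was 0.20 (SE 0.121, adjusted p = 0.188) by edgeR with all libraries and 0.05 without MAARS gapmeR replicate 9. Of its exonic bases, 8.04% overlap Cerkl on the opposite strand, and without a stated strand setting the reads of that stretch cannot be told apart.

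The β2 integrins are the family found on leukocytes alone. Itgb2 itself, the common β chain whose loss causes leukocyte adhesion deficiency, lies on chromosome 10, 77530252 to 77565708, plus strand (ENSMUSG00000000290). It stood at 803, 877, 869 and 787 CPM in the control and at 878, 901, 897 and 885 CPM in the MAARS gapmeR libraries. All MAARS gapmeR libraries were higher than all control libraries. The log2 fold change of 0.09 (SE 0.049, adjusted p = 0.138) did not pass edgeR's test. The adjusted p was 0.0152 under upper-quartile scaling and above 0.05 in the other 14 alternatives.

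Its 3 α partners among the 10 genes, which lie within 854 kb of each other on the plus strand of chromosome 7, did not move together. A further α partner, Itgad, had 2 to 7 counts per library and was not tested. Itgam (CD11b; ENSMUSG00000030786; 128062640 to 128118491), which binds iC3b, fibrinogen and Icam1, had 119.6, 120.3, 114 and 108 CPM in the control and 130.4, 129, 126 and 138 CPM in the MAARS gapmeR libraries, so the groups lay apart. Its log2 fold change was 0.18 (SE 0.0496, adjusted p = 0.0107) by edgeR, a rise of 13.6%. Itgax (CD11c; ENSMUSG00000030789; 128129547 to 128150657), which starts 11.1 kb beyond the end of Itgam and encodes a further iC3b receptor, had 19.3, 20.9, 23.7 and 21.1 CPM and 27.2, 26.5, 29 and 24.6 CPM in the same order, again without overlap, a log2 fold change of 0.34 (SE 0.0759, adjusted p = 0.00393) by edgeR or a rise of 26.3%. Itgal (CD11a; ENSMUSG00000030830; 127296260 to 127335138), the chain of LFA-1 that binds Icam1, had 53.5, 54.3, 67.7 and 56.9 CPM in the control and 48.1, 48.1, 44 and 54.2 CPM in the MAARS gapmeR libraries. The groups touched, since MAARS gapmeR replicate 15 lay between control replicates 2 and 5, and the log2 fold change was -0.26 (SE 0.0835, adjusted p = 0.0266) by edgeR, a fall of 16.3%.

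The fall of Itgal was the less secure of these results. It passed in 10 of the 15 alternative fits and did not pass with upper-quartile scaling (adjusted p = 0.0757 from edgeR) or without control replicate 6 or MAARS gapmeR replicate 9, 11 or 13. Itgam and Itgax passed in all 15. Of the exonic bases of Itgam, 68.7% are shared on the same strand with the read-through gene Gm49368. That gene received 2 to 12 counts per library and Itgam 2101 to 3241, so reads on shared bases were not counted in full for both. Whether such reads were dropped or given to Itgam is not stated in the sources used here.

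Itgam and Itgax are known from neutrophils and dendritic cells as well as macrophages. Of 10 neutrophil markers, 8 could be tested and 0 differed by edgeR, DESeq2 or limma-voom, against 45.4% of all genes by edgeR. At an unadjusted p under 0.05 there were 0 by edgeR and limma-voom and 1, lower, by DESeq2. All 8 had a negative log2 fold change in edgeR's fit, from -0.72 to -0.28, with a median of -0.48. The 10 markers together came to 142, 102, 181 and 300.6 CPM in control replicates 2, 5, 6 and 7 and 106 to 169 CPM in the MAARS gapmeR libraries, and control replicate 7 was the highest of all 8. The 8 dendritic cell markers summed to 1.59 to 3.62 CPM in the control and 1.69 to 2.03 CPM in the MAARS gapmeR libraries. Only Zbtb46 could be tested, and it did not pass, with a log2 fold change of 0.45 (SE 0.338, adjusted p = 0.305) by edgeR. In CPM, Xcr1 and Dpp4, both below the filter, were lower in all MAARS gapmeR libraries than in any control library, and the rest overlapped. Without control replicate 7, 3 of the 10 integrin genes were higher and 3 lower by edgeR, where 2486 of all genes were higher and 2845 lower. In that fit Itgam had a log2 fold change of 0.15 and Itgax of 0.33, and both passed edgeR's test. The part of other cells in the values of Itgam and Itgax was not tested.

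Itgb1, the β chain shared by most matrix receptors, was the integrin gene with the most counts (ENSMUSG00000025809; GRCm38 chromosome 8, 128685654 to 128733200, plus strand). It stood at 893, 908, 889 and 853 CPM in the control and at 922, 963, 934 and 940.2 CPM in the MAARS gapmeR libraries. The groups were apart but close, and the log2 fold change of 0.09 (SE 0.0428, adjusted p = 0.126) did not pass edgeR's test, although it did with upper-quartile scaling (adjusted p = 0.0119 from edgeR).

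Of its α partners, Itga5 fell and Itga6 rose slightly. Itga5, whose product binds the RGD sequence of fibronectin, lies on chromosome 15, 103344286 to 103366763, minus strand (ENSMUSG00000000555). Its level was 159, 143, 155 and 159.5 CPM in the control and 98.4, 127, 123 and 117 CPM in the MAARS gapmeR libraries, where all 4 were lower than any control library. The mean fell from 154 ± 7.66 to 116 ± 12.6 CPM (SD over 4 libraries), by 24.6%, with a log2 fold change of -0.41 (SE 0.0736, adjusted p = 0.00101) by edgeR. Itga6, a laminin receptor chain on chromosome 2, 71745616 to 71858416, plus strand (ENSMUSG00000027111), had 170.3, 173, 177 and 158 CPM in the control and 193, 196, 187 and 172 CPM in the MAARS gapmeR libraries. MAARS gapmeR replicate 15 lay within the control range, and the log2 fold change of 0.14 (SE 0.0534, adjusted p = 0.0489) by edgeR was just past the threshold. It did not pass in 8 of the 15 alternative fits, which were the fit without a filter on low counts (adjusted p = 0.097 from edgeR) and 7 of the 8 that left out 1 library.

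Itgb5, the β chain of the vitronectin receptor αvβ5 with which phagocytes bind apoptotic cells through the bridging protein Mfge8, rose by about as much as Itgax, the most of the 10 genes. The gene (ENSMUSG00000022817; GRCm38 chromosome 16, 33829665 to 33949338, plus strand) stood at 313, 345, 302 and 281 CPM in the control and at 409, 367, 386 and 423 CPM in the MAARS gapmeR libraries. The lowest MAARS gapmeR library, replicate 11, lay above the highest control library, replicate 5. The mean rose from 310.1 ± 26.8 to 396 ± 25.1 CPM (SD over 4 libraries), by 27.8%, with a log2 fold change of 0.35 (SE 0.0673, adjusted p = 0.0014) by edgeR, and it passed in all 15 alternatives. Itgav, its only α partner, had 93.1 ± 9.45 CPM in control and 98.8 ± 12.6 CPM in MAARS gapmeR libraries (SD, n = 4 each) and did not pass the test, with a log2 fold change of 0.09 (SE 0.0942, adjusted p = 0.482) by edgeR. Matrix receptors are carried by fibroblasts too. The 9 stromal markers examined summed to 461 to 1051 CPM in the control and 722 to 1239 CPM in the MAARS gapmeR libraries. Of the 8 that could be tested, 0 differed by edgeR, DESeq2 or limma-voom, against 45.4% of all genes by edgeR. At an unadjusted p under 0.05, 1 was higher by edgeR and by limma-voom, and by DESeq2 1 was higher and 1 lower. The part of stromal cells in the values of Itga5, Itga6, Itgb1 and Itgb5 was not tested.

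**Figure D2:**
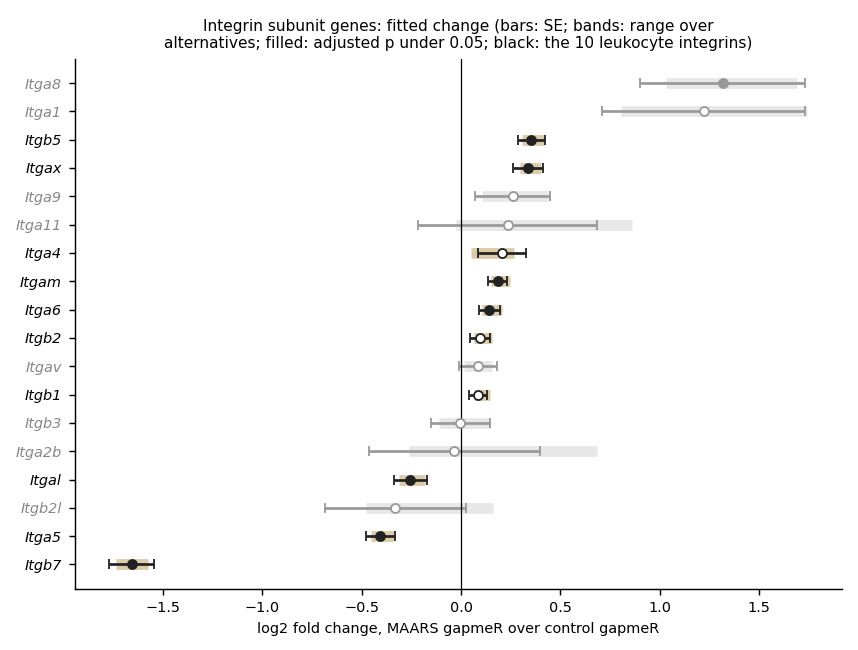
Log2 fold change of MAARS gapmeR over control gapmeR for the 10 integrin genes and the 8 other integrin subunits that passed the filter on low counts, with bars of 1 SE from edgeR's fit, bands for the range over the alternative fits and filled points for an adjusted p under 0.05. Itgb7 lies at -1.66 and the other 9 integrin genes lie between -0.41 and 0.35.

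Levels of different genes were compared per kb of exon. With the exons of all transcripts merged, Itgb2 led with 273 ± 15 CPM per kb in the control libraries (SD, n = 4), followed by Itgb1 with 217 ± 5.69 and Itgb5 with 87.3 ± 7.56, so the 3 most abundant integrin mRNAs were β chains. Far below came Itga5 with 31.2 ± 1.55, Itgam with 22.9 ± 1.18, Itga6 with 18.8 ± 0.898, Itga4 with 11.4 ± 1.28, Itgb7 with 10.7 ± 1.13, Itgal with 8.84 ± 1 and Itgax with 4.43 ± 0.377 CPM per kb. Neighbours in this order overlapped in their libraries for 2 of 9 pairs, Itga4 with Itgb7 and Itgb7 with Itgal. The order below the first 3 depended on the length used. Per kb of the longest transcript Itga6 stood at 39.3 ± 1.88 CPM per kb in the control libraries, above Itga5 with 34.9 ± 1.73 and Itgam with 24.6 ± 1.26 and without overlap, and Itgb7 held rank 9, below Itgal but overlapping it.

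With MAARS gapmeR the first 3 places were held by the same genes, at 292 ± 3.41, 230.3 ± 4.28 and 112 ± 7.06 CPM per kb. Itgam, with 26.1 ± 1.03 CPM per kb, stood above Itga5, with 23.6 ± 2.56, though the ranges overlapped, as did those of Itga5 and Itga6. Itgb7 held the last rank on either length, against rank 8 in the control libraries on merged exons and rank 9 on the longest transcript, with 3.37 ± 0.498 CPM per kb of merged exons. If every read on exonic bases shared with another gene had been dropped in counting, which is not stated, the level of Itgam would have been 73.2 ± 3.76 CPM per kb in the control and 83.2 ± 3.28 CPM per kb in the MAARS gapmeR libraries. These are upper limits, from an alternative chosen after seeing the data, in which counts of the whole gene were divided by the length of its unshared exons.

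**Figure D3:**
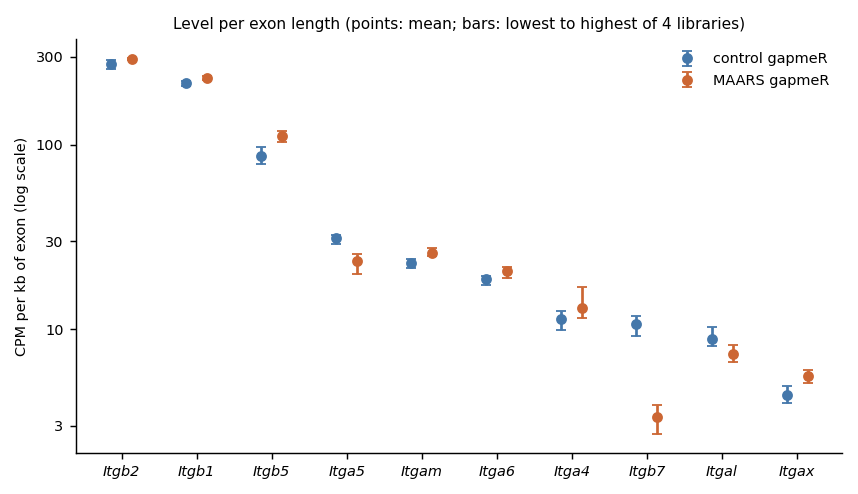
Level of the 10 integrin genes per kb of merged exons, in CPM per kb on a log axis, with control gapmeR and MAARS gapmeR side by side, points for the mean and bars from the lowest to the highest of 4 libraries. Itgb2, Itgb1 and Itgb5 stand highest in both groups, and on the merged exons plotted Itgb7 moves from rank 8 to rank 10.

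Because receptors are made of pairs, the count of each chain was also set against that of its partner within each library. Itgal counts were 6.66, 6.19, 7.8 and 7.24 percent of those of Itgb2 in the control and 5.47, 5.35, 4.91 and 6.12 percent in the MAARS gapmeR libraries. Itgax counts were 2.41, 2.39, 2.73 and 2.69 percent of Itgb2 in the control and 3.1, 2.95, 3.24 and 2.78 percent in the MAARS gapmeR libraries. The ratio of Itgal was lower and that of Itgax higher in all 4 MAARS gapmeR libraries than in any control library, with differences of -0.35 and 0.24 on the log2 scale.

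Itga5 counts were 17.8, 15.7, 17.5 and 18.7 percent of Itgb1 in the control and 10.7, 13.2, 13.2 and 12.4 percent in the MAARS gapmeR libraries, a log2 difference of -0.50. Itgb7 counts were 19.4, 14.5, 17.9 and 23.8 percent of Itga4 in the control and 3.18, 6.47, 5.87 and 5.73 percent in the MAARS gapmeR libraries, a log2 difference of -1.86. These pairs separated the groups as well. Each of these 4 ratios had p = 0.0286 in a two-sided exact permutation test, the smallest p that 4 against 4 libraries allow. After Benjamini-Hochberg adjustment over the 8 ratios computed, the permutation p was 0.0571 for each, so none passed 0.05. With 4 of the 8 at the smallest p, the adjusted value could not be lower, so not passing says nothing about the size of the differences. The ratios Itgam to Itgb2 (log2 difference 0.09), Itga6 to Itgb1 (0.06), Itgb5 to Itgav (0.27) and Itga4 to Itgb1 (0.11) overlapped between the groups, with adjusted p-values of 0.229 to 0.686 by the exact permutation test.

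Per kb, Itgal, Itgam and Itgax together came to 13.3 ± 0.394% of Itgb2 in the control and 13.4 ± 0.543% in the MAARS gapmeR libraries (SD, n = 4 each). Within that sum the share of Itgal went from 24.4 ± 2.23% to 18.9 ± 1.01%, that of Itgam from 63.4 ± 3.01% to 66.7 ± 0.405% and that of Itgax from 12.2 ± 0.838% to 14.4 ± 1.41%. These percentages rest on all merged exons of Itgam, most of which are shared with Gm49368. At the upper limit for Itgam of 73.2 CPM per kb in the control libraries, the sum would be larger and the shares of Itgal and Itgax smaller.

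**Figure D4:**
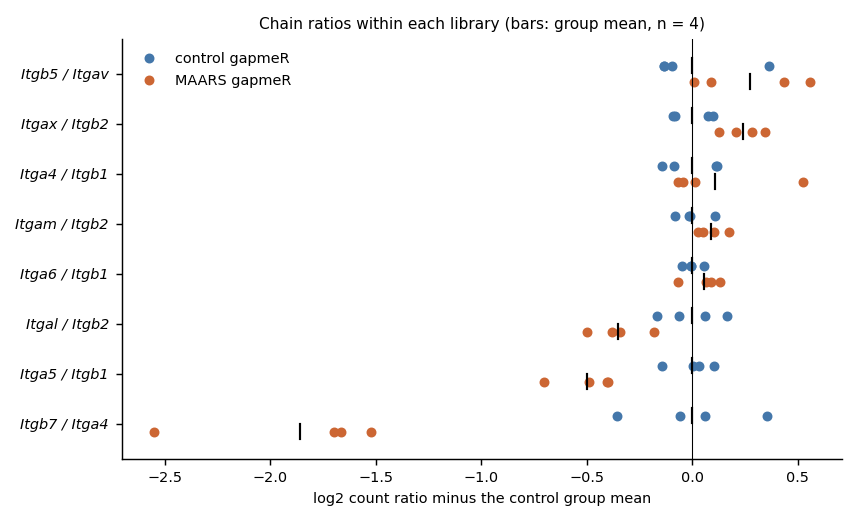
Count of one integrin chain over that of its partner in each library, for 8 pairs, as log2 ratio minus the mean of the control group, with 4 control gapmeR and 4 MAARS gapmeR libraries each and bars at the group means. The groups lie apart for Itgal to Itgb2, Itgax to Itgb2, Itga5 to Itgb1 and Itgb7 to Itga4.

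The other 17 integrin subunits were mostly at or near 0 in these cells, with 9 below the filter and Itgb6 at 0 in all libraries. Of the 8 tested, 1 was higher and 0 lower by edgeR, DESeq2 and limma-voom alike, against 21.3% and 24.0% of all genes by edgeR, with 2 higher and 0 lower at an unadjusted p under 0.05 and a median log2 fold change of 0.16. Itga8, a chain of mesenchymal cells, was the one that passed, at 0.293 ± 0.16 CPM in control and 0.736 ± 0.242 CPM in MAARS gapmeR libraries (SD, n = 4 each), and it had a log2 fold change of 1.32 (SE 0.415, adjusted p = 0.0229) by edgeR. These were 2 to 10 counts per control library and 10 to 23 per MAARS gapmeR library, and the call was lost when control replicate 5 or 6 or MAARS gapmeR replicate 11 or 15 was left out.

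The others did not pass. Itgb3, a further partner of Itgav, had 32 ± 8.09 CPM in control and 31.9 ± 3.34 CPM in MAARS gapmeR libraries, and Itga9 had 14.2 ± 3.93 CPM in control and 17 ± 3.66 CPM in MAARS gapmeR libraries (SD, n = 4 each). The log2 fold changes of Itga1, Itga11, Itga2b and Itgb2l were 1.22, 0.23, -0.03 and -0.33, each at a mean below 2 CPM. Itga2b marks platelets and megakaryocytes, and the 5 megakaryocyte markers examined summed to 1.03 to 2.41 CPM in the control and 2.31 to 2.95 CPM in the MAARS gapmeR libraries, with Ppbp, the only one that could be tested, higher.

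The proteins that bring integrins into the active form and link them to the cytoskeleton were examined as a list of 36 genes, of which 35 could be tested. Of these, 11 were higher and 12 lower, against 21.3% and 24.0% of all genes tested, with a median log2 fold change of -0.03. Among those with the smallest p were kinases that signal behind β2 and β3 integrins. The Src-family kinase Fgr fell from 8.97 ± 2.29 to 2.6 ± 0.303 CPM, with a log2 fold change of -1.79 (SE 0.188, adjusted p = 2.46e-05) by edgeR. Syk, a kinase that takes up the signal of Src-family kinases, rose from 373 ± 21.3 to 529 ± 19.3 CPM, with a log2 fold change of 0.50 (SE 0.0518, adjusted p = 2.17e-05) by edgeR (SD, n = 4 each). Talin (Tln1) and kindlin-3 (Fermt3), named here after their values were seen because every leukocyte integrin needs them, had log2 fold changes of 0.06 (SE 0.0544, adjusted p = 0.413) and -0.12 (SE 0.0554, adjusted p = 0.099) by edgeR and did not pass.

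Of 6 inhibitors of integrin activation, 2 were higher and 2 lower, where 45.4% of all genes differed in either direction, with a median log2 fold change of -0.04. Dok1, which competes with talin for the β tail, fell from 98.2 ± 9.34 to 72.8 ± 3.11 CPM, with a log2 fold change of -0.43 (SE 0.0663, adjusted p = 0.000345) by edgeR. Itgb1bp1 (ICAP-1), which holds the Itgb1 tail inactive, fell from 35.7 ± 1.56 to 29.6 ± 1.2 CPM with -0.27 (SE 0.0552, adjusted p = 0.00209) by edgeR, and it shares 16.9% of its exonic bases with 2 opposite-strand genes. Filamin A (Flna), an actin crosslinker that also occupies β tails, rose from 876 ± 54 to 1062 ± 61.8 CPM with 0.28 (SE 0.0594, adjusted p = 0.00288) by edgeR.

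Among 34 ligands, 20 could be tested, with 5 higher and 4 lower, a share near the 45.4% of all genes that differed. Their median log2 fold change was 0.47, against 0.01 for all genes tested. Thrombospondin-1 (Thbs1), a matrix protein that phagocytes secrete, rose from 379 ± 57 to 1018 ± 109.9 CPM with a log2 fold change of 1.42 (SE 0.109, adjusted p = 5.27e-06) by edgeR. The laminin chain Lamb2 rose from 2.27 ± 0.667 to 6.03 ± 0.248 CPM with 1.41 (SE 0.182, adjusted p = 0.000104) by edgeR. Icam1, the ligand of LFA-1 and Mac-1, fell from 100.3 ± 16.2 to 49.4 ± 3.01 CPM with -1.02 (SE 0.1, adjusted p = 1.64e-05) by edgeR, and it shares 11.7% of its exonic bases with an opposite-strand gene. The count of higher ligands depended on control replicate 7, without which 10 were higher. Of all genes, 2486 were higher without that library and 2782 with it.

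Of 13 membrane proteins that sit beside integrins, all tested, 3 were higher and 6 lower, against 21.3% and 24.0% of all genes, with a median log2 fold change of -0.15. The 3 with the smallest p all fell. Slc3a2 (CD98hc), which binds β1 tails and carries amino acid transporters, fell from 1217 ± 163 to 541 ± 31 CPM, with a log2 fold change of -1.17 (SE 0.0871, adjusted p = 5.27e-06) by edgeR. The leukocyte tetraspanin Cd53 fell from 851 ± 41.4 to 571 ± 20 CPM with -0.58 (SE 0.05, adjusted p = 8.42e-06) by edgeR, and Cd47, the signal by which cells avoid being eaten and a partner of αvβ3, fell from 401 ± 43.5 to 265 ± 13.9 CPM with -0.60 (SE 0.0729, adjusted p = 7.15e-05) by edgeR. The study measured the Cd47 protein in BMDMs by FACS or Western blot and reported no significant change with MAARS silenced.

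**Figure D5:**
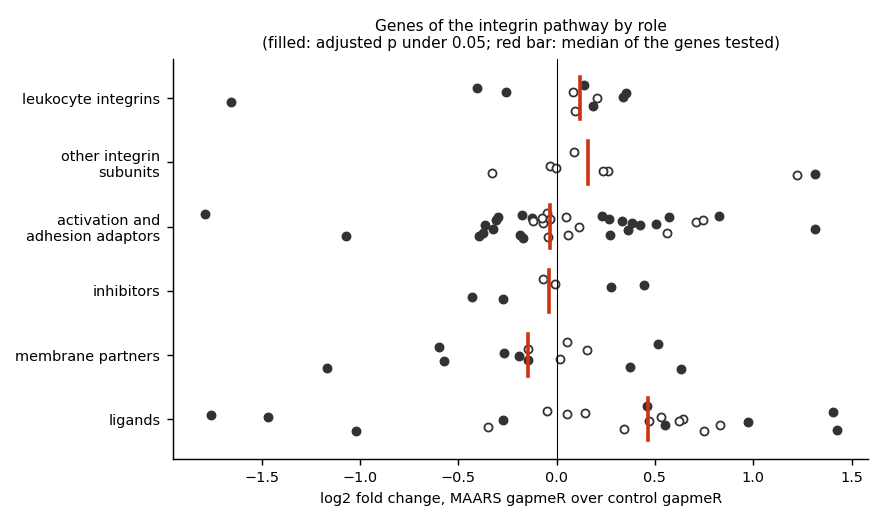
Log2 fold change of MAARS gapmeR over control gapmeR for every tested gene of the lists of integrin genes by role, each point a gene, filled where the adjusted p was under 0.05, with a red bar at the median of the genes tested. The lists of activators and inhibitors hold points on both sides of 0, and Itgb7 is the lowest of the 10 integrin genes at -1.66.

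The genes whose log2 CPM followed Itgb7 most closely over the 8 libraries were Apobr, Tcof1 and 4930430E12Rik, with Pearson's r of 0.998 for each. Those closest to Itgb5, the integrin gene with the smallest p among those that rose, were Tram1, Scn3b and Brd1, with r of 0.991, 0.989 and 0.988. These values describe likeness only, since all libraries share the same 2 groups, and 890 genes tracked Itgb7 and 260 tracked Itgb5 with r over 0.95.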

How the data were processed

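RNA-Seq of 4 control gapmeR and 4 MAARS gapmeR BMDM libraries was analysed. Per the labels and the study's methods, the authors trimmed the reads with Trimmomatic 0.36, aligned them with STAR 2.5.2b to mm10 (GRCm38) with Ensembl transcripts and deposited raw featureCounts (Subread 1.5.2) counts of 49315 genes. The strand setting and the treatment of reads with several matches are not given in the sources used here. Groups came from the sample labels.

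Genes were filtered with filterByExpr (minimum count 10, minimum total 15), which left 13051, and tested with edgeR 4.0.16 in R 4.3.3 (TMM factors of 0.955 to 1.03, glmQLFit, glmQLFTest, Benjamini-Hochberg over all genes tested, threshold 0.05). The SE is the absolute log2 fold change over the square root of F. The biological coefficient of variation was 8.51%. Ratios of chains used a pseudocount of 0.5 counts and exact permutation tests. Replicates of a group differed by a chi-square of 4.26 to 15.4 per gene, more than sampling noise. Gene lengths, positions and overlaps came from a GRCm38 annotation holding 99.5% of the genes.

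The integrin genes and the lists by role and cell type were chosen with earlier results of these data known. Named are all 10 integrin genes, MAARS, tested integrin subunits, the 3 genes of each role list with the smallest p (1 is not reported here), and for the integrin gene with the smallest p in each direction the 3 genes most like it. Spi1, Tln1, Fermt3 and single markers lie outside this rule and were chosen after their values were seen. Alternatives were RLE and upper-quartile factors, DESeq2 1.42.0, limma-voom (limma 3.58.1), no filter or a mean count filter of 10, 1 surrogate variable (sva 3.50.0), each library left out and other thresholds. The procedure was tested on simulated counts.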

Additional observations from a re-analysis of the deposited data

Results flagged for a closer look

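In 78 groups of 4 libraries examined for an outlying library by Dixon's criterion, 6 held one, and chance alone gives about 1 in 20. Itga4 stood at 237 CPM in MAARS gapmeR replicate 9, where the other 3 libraries of the group had 161 to 169 CPM. The same library stood apart in both ratios that contain Itga4. The log2 ratio of Itga4 to Itgb1 was -1.96 there and -2.55 to -2.47 in the others, and that of Itgb7 to Itga4 was -4.98 against -4.12 to -3.95. In control replicate 7, Itga2b, the platelet integrin chain, was at 2.65 CPM against 0.595 to 0.866 CPM in the other controls, and Itgb2l, a β2-like chain, was at 2.80 CPM against 1.03 to 1.12 CPM. That library also had the highest summed neutrophil markers. The log2 ratio of Itgb5 to Itgav was 2.10 in control replicate 5 and 1.60 to 1.64 in the other controls.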

How the results depend on the processing

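Of the values of the 10 integrin genes under all alternatives, 135 stayed on the same side of the threshold, 13 lost and 2 gained a call, and 0 turned direction. The calls lost were those of Itga6 and Itgal. When a log2 fold change of 1.5 or more in size was required besides the adjusted p, 0 of the 10 integrin genes were higher and 1 lower (Itgb7), as at an unadjusted p under 0.0001 (0 and 1). The share of all genes at these thresholds is not given here, so the counts cannot be set against it. With single libraries left out, 3 to 4 were higher and 2 to 3 lower, where 2323 to 2700 of all genes were higher and 2774 to 3032 lower. Higher ligands numbered 8 without a filter on low counts, 13 with 1 surrogate variable and 4 to 10 with single libraries left out, against 5. Among all genes, 2664, 3153 and 2323 to 2700 were higher in the same fits, against 2782. Other integrin subunits higher numbered 0 to 1 with single libraries left out. The log2 difference of the Itga4 to Itgb1 ratio was -0.033 to 0.16 with single libraries left out, negative only without MAARS gapmeR replicate 9. Neighbours in the order of levels that overlapped numbered 1 in the control libraries on longest transcripts and 1 in the MAARS gapmeR libraries when counts were divided by the length of exons shared with no other gene. Per kb of the longest transcript Itga6 ranked above Itga5 and Itgam. Of genes that did not pass, Itga2b (-0.03) turned to 0.026 with upper-quartile factors, 0.19 with limma-voom and 0.13 with 1 surrogate variable, and ranged from -0.26 to 0.69 with single libraries left out. Itgb3 (-0.00) turned to 0.0037 with RLE factors, 0.059 with upper-quartile factors and 0.028 with limma-voom, and ranged from -0.11 to 0.14. Itga11 ranged from -0.027 to 0.86 and Itgb2l from -0.48 to 0.16. Why these values changed was not tested. Over all genes, 47.0% of calls were higher with TMM factors (2782 higher, 3137 lower) and 60.4% with upper-quartile factors (3622 higher, 2379 lower). No paired analysis was possible because the groups share no replicate number. Depth limits Itga8 and the other subunits with few counts, whose values rest on few counts per library.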

Other observations

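Further ligands, chosen after their values were seen, are given as values. C3, the complement protein whose fragment iC3b binds Mac-1 and CR4, was at 76.8 ± 25.5 CPM in control and 22.7 ± 7.41 CPM in MAARS gapmeR libraries, with a log2 fold change of -1.76 (SE 0.252, adjusted p = 0.000218) by edgeR. F11r, a junction protein that binds LFA-1, was at 2.82 ± 0.539 CPM in control and 1.01 ± 0.274 CPM in MAARS gapmeR libraries, with a log2 fold change of -1.47 (SE 0.235, adjusted p = 0.000439) by edgeR. Lamc1, the γ chain common to most laminins, was at 63.6 ± 4.64 CPM in control and 87.3 ± 5.89 CPM in MAARS gapmeR libraries, with a log2 fold change of 0.46 (SE 0.0647, adjusted p = 0.000194) by edgeR. Vcam1, which binds VLA-4 and α4β7, was at 10 ± 1.76 CPM in control and 9.69 ± 0.733 CPM in MAARS gapmeR libraries, with a log2 fold change of -0.05 (SE 0.124, adjusted p = 0.763) by edgeR. Mfge8 had 232, 259.6, 196 and 187 CPM in the control and 243, 239, 239 and 243 CPM in the MAARS gapmeR libraries, and its log2 fold change was 0.14 (SE 0.0876, adjusted p = 0.205) by edgeR. Means are ± SD with n = 4 each.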
